A study of Mus musculus with 12 samples.

Results

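Fos, Jun, Elk1, Atf2, Creb1, Myc, Max and Bcl6 are 8 transcription factor genes on an inflammation panel, chosen by name from the endogenous probes of the deposited count table, where they make up 8 of 179 inflammation genes. All 8 lay above the negative control probes in all 12 lanes, so none was lost to the filter on low counts. The messenger RNAs (mRNAs) were counted in whole oviducts of female CD1 mice, an outbred stock, aged 6 to 8 weeks. Each mouse was injected intraperitoneally at estrus with 100 µL of phosphate-buffered saline, which carried no lipopolysaccharide (LPS) for the control group, 2 µg for the low-dose group and 10 µg for the high-dose group. LPS is a cell wall component of Gram-negative bacteria, here from E. coli serotype 055:B5, and the oviducts were taken 24 h later from 4 mice per group. Counts came from the nCounter platform, on which barcoded probes bound to single mRNA molecules are counted without amplification.

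AP-1 is a family of DNA-binding dimers, typically of a Fos and a Jun protein, whose subunits are joined through paired leucine zippers. Atf2 and Creb1 belong to the related ATF and CREB branch of zipper proteins, and Elk1 is an ETS-domain factor that switches on Fos when extracellular signals activate MAP kinases. Myc activates growth genes as a dimer with Max, and Bcl6 is a zinc finger repressor. Binding of LPS to its receptor Tlr4 activates NF-kB and the MAP kinases, which phosphorylate Jun, Atf2 and Elk1 and, through downstream kinases, Creb1. Much of the control of these factors therefore lies in the protein, which mRNA counts do not measure. Transcription of Fos, Jun and Myc itself is known to be induced early and briefly after stimulation, and the single time sampled here was 24 h.

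The promoters of Fos, Jun, Elk1, Max and Bcl6 carry motifs that some of these factors are known to bind. Promoters were matched by symbol in RefSeq (build GRCm38.p6) for 7 of the 8 genes, all but Myc, and are numbered from the transcript start, with the last base before it at -1. The 150 bases before the Fos start (chr12:85473740-85473889, plus strand) and the Jun start (chr4:95052223-95052372, minus strand) are shown because each holds an element known to bind other members. Capitals mark TGACG, the core of the CREB site, in Fos, and TGACATCA, a site known to bind Jun and Atf2 dimers, in Jun.
Fos: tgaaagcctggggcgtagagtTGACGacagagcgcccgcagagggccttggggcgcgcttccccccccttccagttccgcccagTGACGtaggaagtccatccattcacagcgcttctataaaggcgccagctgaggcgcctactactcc
Jun: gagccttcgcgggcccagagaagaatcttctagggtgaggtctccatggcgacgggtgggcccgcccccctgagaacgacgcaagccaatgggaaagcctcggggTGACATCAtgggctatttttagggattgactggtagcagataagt
The TGACG matches of Fos began at -129 and -66, and the TGACATCA match of Jun at -45. On either strand TGACG matched in 2 of the 7 genes, Fos and Bcl6, beside 20.8% of 32851 mouse promoter windows of 300 bases. TGACATCA matched in 1 of the 7, Jun, beside 3.62% of windows.

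Windows of 40 bases around CACGTG, the E-box that Myc and Max dimers bind, are shown for the 3 genes that hold one, among them Max. They lie at chrX:20950579-20950618 for Elk1, chr12:76962229-76962268 for Max and chr16:23988890-23988929 for Bcl6, all on the minus strand, and capitals mark the E-box.
Elk1: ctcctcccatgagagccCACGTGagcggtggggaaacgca
Max: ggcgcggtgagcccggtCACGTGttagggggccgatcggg
Bcl6: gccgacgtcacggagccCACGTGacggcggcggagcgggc
CACGTG, which reads the same on both strands, occurred in 7.15% of all promoter windows. In Bcl6 it overlaps 1 of that promoter's 2 TGACG matches. The full CREB site TGACGTCA (1.79% of windows) and the AP-1 site TGANTCA (7.81%), both sought on both strands, matched in 0 of the 7 genes. Atf2 and Creb1 held none of the motifs sought. A match is a description of the letters only.

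Endogenous counts per lane ranged from 98258 to 196878. Fields of view counted ranged from 62.3% to 90.2%, and in these control mice 2 and 4 were lowest. Lanes were scaled by 6 reference genes (Gapdh, Tubb5, Pgk1, Cltc, Hprt1 and Gusb), and a scaled count is the count divided by that scale, which ran from 0.773 to 1.25. Levels of different genes are not set against each other, since probes can differ in efficiency. The panel held 0 of 6 oviduct epithelium and 0 of 4 smooth muscle markers, so the tissue label could not be checked with them. Of the macrophage and monocyte markers all 4 were present (C1qa, C1qb, C3ar1, Ccr2), with a summed scaled count of 1470 to 2077 in controls, 1357 to 5114 with 2 µg and 4034 to 5058 with 10 µg. Of the neutrophil markers 2 of 3 were present (Il8rb and Il8ra), with sums of 5.06 to 7.98, 23.6 to 36.7 and 33.7 to 63.9. Itgb2, the 1 of 3 leukocyte markers present, lay at 72.5 to 116.7, 88.5 to 258.2 and 162.5 to 304.6, and the T cell markers Cd4 and Cd40lg summed to 14.3 to 53.9, 41.4 to 97.1 and 40.2 to 60.0. None of the 2 B cell markers was on the panel. In whole oviduct a change in the number of cells of a type and a change in mRNA per cell cannot be told apart, and the part of these leukocyte markers in the counts of the 8 genes was not tested.

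None of the 8 genes differed between groups past the threshold of an adjusted p of 0.05 by edgeR's quasi-likelihood test, at either dose or between the doses. At the high dose 0 of 8 passed where 22.4% of all 165 genes tested did, at the low dose 0 of 8 where 2.42% did, and between the doses 0 of 8 where 6.67% did. At an unadjusted p below 0.05 there were 0 of 8, 0 of 8 and 1 of 8, against 32.1%, 13.9% and 22.4% of all genes, and the 1 was Jun between the doses. DESeq2 called 1, 0 and 0 of the 8, and limma-voom and the analysis of variance that the series names called none in any of the 3 comparisons. At the high dose these tools called 66, 39 and 24 of all 165 genes in turn. In none of the 24 pairs of groups, 3 for each gene, were the values of the 8 genes without overlap, as they were for 26.1%, 4.24% and 14.5% of all genes. Log2 fold changes of the 8 had a median of 0.05 at the high dose, -0.07 at the low dose and 0.14 between the doses, beside 0.24, 0.08 and 0.21 for all 165 genes.

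**Figure D1:**
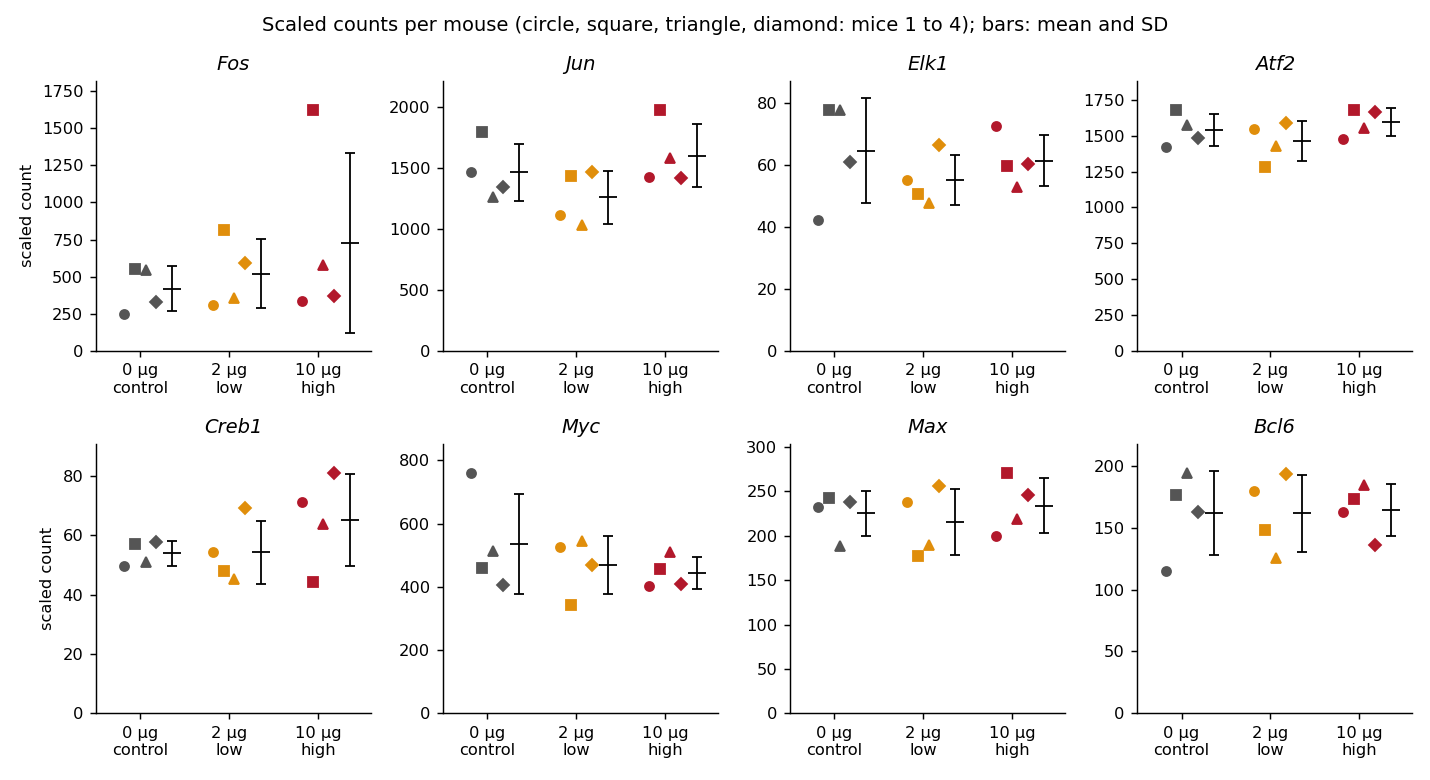
Scaled counts (y axis, from 0) of the 8 transcription factors in each mouse, by LPS dose (x axis), with symbols for mice 1 to 4 of a group and bars for the mean and SD of 4 mice. The groups overlap for every gene, and high-dose mouse 2 stands above all other mice for Fos, at 1624.

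Fos, the zipper protein that pairs with Jun in AP-1, had the widest spread of the 8. Its scaled counts in control mice 1 to 4 were 246.3, 552.7, 542.1 and 331.2. Low-dose mice 1 to 4 had 311.4, 815.6, 357.8 and 589.5, and high-dose mice 332.5, 1624, 578.1 and 367.6. High-dose mouse 2 and low-dose mouse 2 lay far above every control mouse, and low-dose mouse 4 and high-dose mouse 3 just above. The other 4 mice given LPS lay within the control range. The mean was 418.1 ± 153.4 in controls, 518.6 ± 232.4 in the low-dose mice and 725.6 ± 608.7 in the high-dose mice (SD, n = 4).

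The log2 fold change of Fos at the high dose was 0.80 ± 0.52 (SE, edgeR adjusted p = 0.316), with a 95% interval from 0.790-fold to 3.82-fold. This is the largest estimate among the 8 genes and the least precise, and without high-dose mouse 2 it was 0.03. Control and high-dose mice of the same number deviated together over all genes, though weakly for number 3 (r = 0.11). The labels do not say that a number marks anything shared. Within these 4 pairs Fos was higher at the high dose in 4 of 4, by 0.43, 1.55, 0.093 and 0.15 on the log2 scale. The mean within pairs was 0.56 ± 0.68 (SD, exact two-sided paired permutation p = 0.125, the smallest that 4 pairs can give), and 0.22 without pair 2. The low dose gave 0.31 ± 0.51 (edgeR adjusted p = 0.843), which was 0.01 without low-dose mouse 2. Between the doses the estimate was 0.48 ± 0.51 (edgeR adjusted p = 0.619), and -0.28 without high-dose mouse 2. A doubling of Fos was thus neither shown nor outside the interval at either dose.

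Jun, the other AP-1 subunit, stood at 1468, 1794, 1260 and 1342 in control mice 1 to 4. Low-dose mice had 1114, 1433, 1036 and 1464, and high-dose mice 1429, 1979, 1584 and 1423. The highest low-dose mouse lay above the lowest 2 high-dose mice, so the dose groups overlapped, though the means were 1262 ± 218 with 2 µg and 1603 ± 261 with 10 µg, with controls at 1466 ± 235 (SD, n = 4). Between the doses the log2 fold change of Jun was 0.35 ± 0.16 (SE), with an unadjusted edgeR p of 0.0492 and an adjusted p of 0.22. Scaled by TMM, DESeq2 size factors, positive controls and total count, it was 0.17, 0.16, 0.18 and -0.11, and none of these passed. Against controls, on the reference genes, it was 0.13 ± 0.16 at the high dose and -0.22 ± 0.16 at the low dose (SE, edgeR adjusted p = 0.626 and 0.567). These intervals reached from 0.862-fold to 1.39-fold and from 0.678-fold to 1.09-fold.

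Elk1, the ETS factor upstream of Fos, had among the lowest raw counts of the 8, 50 to 76 per lane. Scaled counts ran from 42.2 to 77.7 in controls, from 47.8 to 66.4 with 2 µg and from 53.0 to 72.5 with 10 µg. All low-dose and high-dose values thus lay within the control range. The log2 fold changes were -0.07 ± 0.21 at the high dose and -0.23 ± 0.21 at the low dose (SE; edgeR adjusted p = 0.844 and 0.713), and 0.16 ± 0.21 between the doses.

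Atf2, a zipper factor that pairs with Jun, was the steadiest of the 8. Its scaled counts were 1420, 1680, 1572 and 1482 in control mice 1 to 4. Low-dose mice had 1546, 1279, 1427 and 1590, and high-dose mice 1476, 1679, 1554 and 1669. Low-dose mouse 2 was the lowest of all mice and the remaining 11 lay between 1420 and 1680. The log2 fold change was 0.05 ± 0.09 at the high dose, -0.08 ± 0.09 at the low dose and 0.13 ± 0.09 between them (SE; edgeR adjusted p = 0.748, 0.747 and 0.411). At the high dose the interval ran from 0.908-fold to 1.18-fold, the narrowest of the 8 on this scale. Other scalings ended this: at the high dose Atf2 was called lower with TMM (-0.20, edgeR adjusted p = 0.0396), DESeq2 size factors (-0.22, 0.0325) and the total count (-0.53, 0.00218) as the scale, and by DESeq2's own test (-0.22, adjusted p = 0.0087).

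Creb1, the cyclic AMP response factor, had raw counts of 41 to 70. In control mice 1 to 4 its scaled counts were 49.8, 56.9, 51.1 and 57.9, and in low-dose mice 54.3, 48.1, 45.4 and 69.4. High-dose mice had 71.2, 44.4, 63.9 and 81.2, so that 3 of 4 lay above every control and mouse 2 lay below all of them. High-dose mouse 2, with the most Fos, thus had the least Creb1, but low-dose mouse 3 lay close at 45.4. The relation of Creb1 to Fos was not tested. The log2 fold change was 0.27 ± 0.20 at the high dose (SE, edgeR adjusted p = 0.397, interval 0.889-fold to 1.64-fold). It was 0.01 ± 0.20 at the low dose and 0.26 ± 0.20 between the doses (edgeR adjusted p = 0.996 and 0.466).

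Myc was highest in a control animal. Its scaled counts were 760.9, 458.2, 514.5 and 406.0 in control mice 1 to 4. Low-dose mice had 525.0, 341.3, 543.5 and 469.6, and high-dose mice 401.2, 455.3, 511.5 and 408.2. The means were 534.9 ± 157.1 without LPS, 469.9 ± 91.3 with 2 µg and 444.1 ± 51.0 with 10 µg (SD, n = 4), and apart from control mouse 1 the control and high-dose ranges nearly coincided. The log2 fold change at the high dose was -0.27 ± 0.20 (SE, edgeR adjusted p = 0.401, interval 0.611-fold to 1.13-fold), and -0.05 without control mouse 1. With 2 µg it was -0.19 ± 0.20 and between the doses -0.08 ± 0.20 (edgeR adjusted p = 0.736 and 0.902).

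Max, the partner of Myc, ran from 188.2 to 242.0 in controls, from 177.6 to 255.6 in low-dose and from 200 to 271.0 in high-dose mice (scaled counts). Bcl6, the repressor, ran from 114.7 to 194.3, from 125.1 to 193.2 and from 135.7 to 184.5. For both genes the groups overlapped over most of their ranges. The log2 fold changes at the high dose were 0.06 ± 0.15 for Max and 0.02 ± 0.19 for Bcl6 (SE; edgeR adjusted p = 0.844 and 0.935). With 2 µg they were -0.07 ± 0.15 and -0.0046 ± 0.19 (0.881 and 0.996), and between the doses 0.12 ± 0.15 and 0.02 ± 0.19 (0.682 and 0.978). With 10 µg the intervals of the 7 genes other than Fos lay within 0.611-fold to 1.64-fold, so on this scale a doubling or halving of any of them lay outside.

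**Figure D2:**
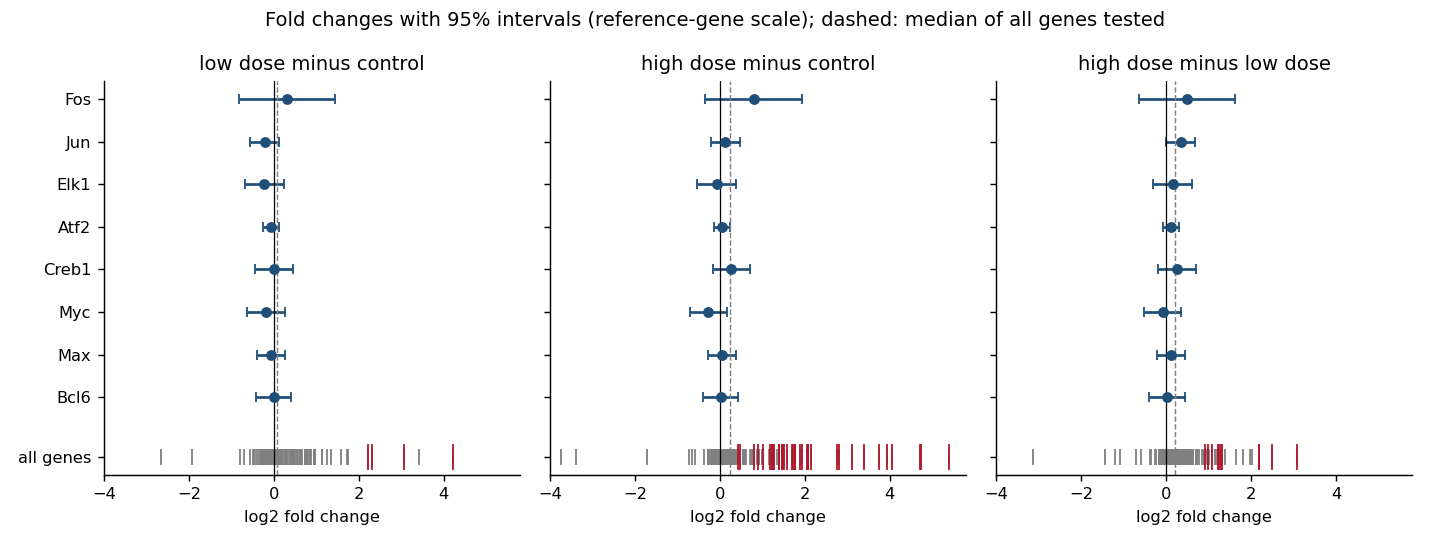
Log2 fold changes (x axis) of the 8 genes in the 3 comparisons, with 95% intervals from edgeR, and of all 165 genes tested as ticks in the bottom row (red, adjusted p below 0.05). The interval of Fos is the widest in each panel, from -0.34 to 1.93 at the high dose, and the called genes lie to the right of 0.

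The direction of most of these small differences depended on how the lanes were scaled. The median log2 fold change of all 165 genes at the high dose was 0.24 on the 6 reference genes, 0.23 on 4 of them, 0.20 on the positive control probes, 0.0035 with TMM, -0.023 with the size factors of DESeq2 and -0.34 with the total count. A change of scale moves all genes of a comparison nearly alike, so distances from that median hardly depend on it and are no check of stability. Measured from the median, Fos lay 0.54 to 0.57 above it and Creb1 0.02 to 0.04 above. Below it lay Myc by -0.59 to -0.50, Elk1 by -0.31 to -0.27, Bcl6 by -0.22 to -0.20, Max by -0.22 to -0.18, Atf2 by -0.20 to -0.18 and Jun by -0.13 to -0.10. With 2 µg Fos lay 0.23 to 0.27 above the median of all genes and the other 7 below it, Jun by -0.32 to -0.29 and Myc by -0.35 to -0.25 over the 6 scalings. By total count 6 of the 8 genes, all but Fos and Creb1, were called lower at the high dose, and with TMM or the size factors Atf2 alone was. On the 6 reference genes, 4 of them or the positive controls, 0 of 8 passed.

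**Figure D3:**
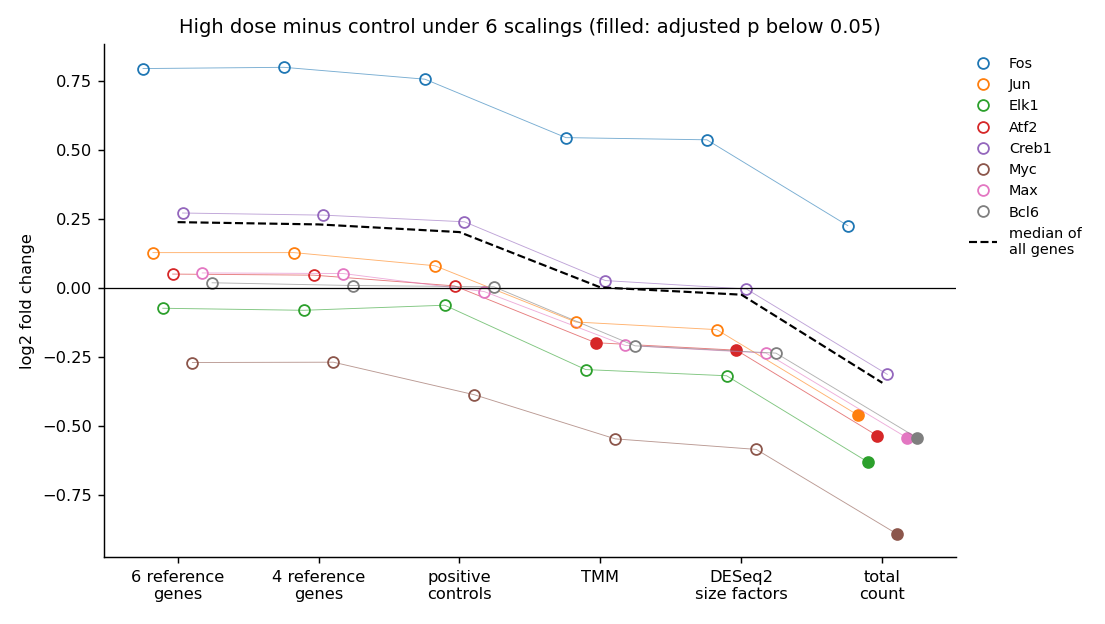
Log2 fold change at the high dose against control (y axis) of the 8 genes under 6 scalings (x axis), with filled points for an adjusted p below 0.05 and the median of all 165 genes dashed. The genes move down together with the median, from 0.24 to -0.34, as a change of scale makes them do.

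The spread between mice of 1 group differed widely among the 8 genes. The SD within groups of log2(scaled count + 1) was 0.78 for Fos, 0.30 for Myc, 0.28 for Elk1, 0.27 for Bcl6, 0.27 for Creb1, 0.23 for Jun, 0.21 for Max and 0.11 for Atf2, beside a median of 0.33 over all genes tested. Fos ranked 6 among the 99 genes with a mean raw count of at least 100, counted from the widest. Its spread was 11.3 times the counting error of its own counts, against 6.05 times for Jun and 4.46 times for Myc. For Elk1 and Creb1 the ratios were 1.51 and 1.40, at mean raw counts of 59.7 and 57.6 per lane. Differences between ranks were not tested.

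**Figure D4:**
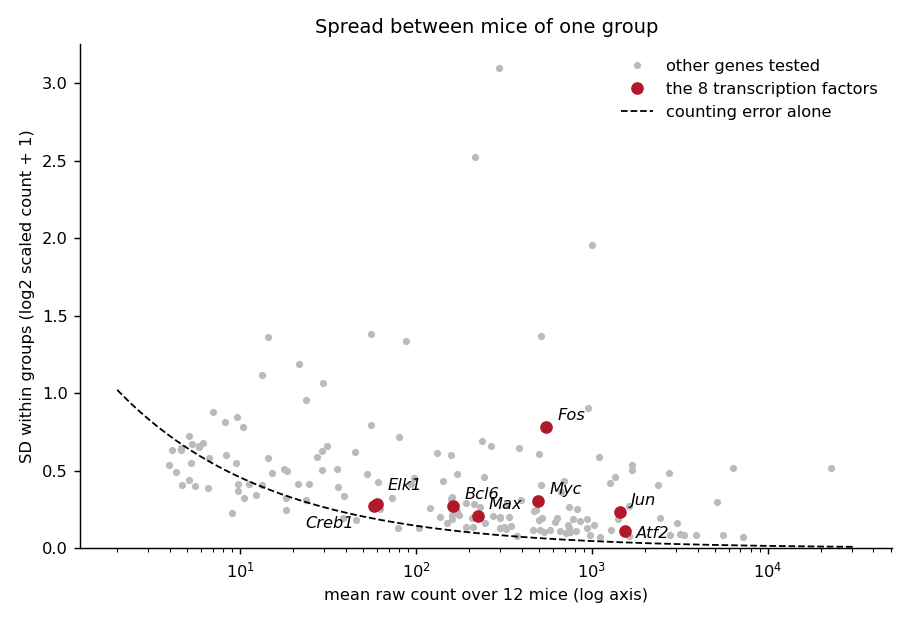
SD within groups of log2(scaled count + 1) (y axis) against the mean raw count over 12 mice (x axis, log) for the 165 genes tested, with the 8 transcription factors in red and the spread from counting error alone dashed. Fos, at 0.78, stands above most genes of like count, though Ccl5 is wider at 1.37, and Creb1 and Elk1 lie close to the dashed line.

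Whether partners in a dimer varied together was asked for Fos with Jun, Jun with Atf2 and Myc with Max, 3 relations over 12 mice. After removal of group means, with mice permuted within groups, Fos and Jun had a Pearson r of 0.74 (permutation p = 0.0177, adjusted over the 3 relations 0.0532) and a Spearman rho of 0.55 (permutation p = 0.0817, adjusted 0.245), so the relation did not pass the adjustment. Without high-dose mouse 2 and low-dose mouse 2, the mice farthest out in Fos, r was 0.51 over 10 mice (permutation p = 0.23). The relation was thus not shown without these mice. With group means kept, r was 0.63 (permutation p = 0.0279, adjusted 0.0838) and rho 0.54 (permutation p = 0.0748, adjusted 0.225). The shared lane scale enters both genes, and scaled by the positive controls r fell to 0.32 (permutation p = 0.246).

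Jun with Atf2 had an r of 0.22 and a rho of 0.17 within groups (permutation p = 0.543 and 0.646, adjusted 0.608 and 0.659). Myc with Max had 0.18 and 0.17 (permutation p = 0.608 and 0.659, adjusted 0.608 and 0.659). With group means kept, Jun with Atf2 had 0.44 and 0.40 (permutation p = 0.156 and 0.201, adjusted 0.235 and 0.302) and Myc with Max 0.15 and -0.07 (permutation p = 0.66 and 0.835). Without the 2 mice farthest out in the first gene, r within groups was -0.23 for Jun with Atf2 and -0.40 for Myc with Max (permutation p = 0.694 and 0.311). On the positive control scale r within groups was 0.29 for Jun with Atf2 and 0.67 for Myc with Max (permutation p = 0.517 and 0.109), and by TMM -0.10 and 0.43 (permutation p = 0.83 and 0.31). Neither relation passed the threshold under these scalings, and for Myc with Max r depended strongly on the scale.

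The ratio of 2 raw counts in 1 lane does not depend on any scaling. Fos per Jun was 0.168, 0.308, 0.430 and 0.247 in control mice 1 to 4. Low-dose mice had 0.279, 0.569, 0.345 and 0.403 and high-dose mice 0.233, 0.821, 0.365 and 0.258, so the groups overlapped. Myc per Max ran from 1.70 to 3.28 in controls, from 1.84 to 2.87 with 2 µg and from 1.66 to 2.33 with 10 µg. By exact two-sided permutation tests of 4 mice against 4, whose smallest p is 0.0286, none of 9 comparisons passed: the lowest p was 0.229, for Fos per Jun at the low dose, a log2 difference of 0.50, and the lowest adjusted p was 0.72. Fos per Jun differed by 0.43 and Myc per Max by -0.29 at the high dose (log2, exact permutation p = 0.486 and 0.314). Within the 4 pairs of same-numbered control and high-dose mice, Myc per Max was lower at the high dose in 4 of 4 and Fos per Jun higher in 3 of 4 (exact paired permutation p = 0.125 and 0.375). The ratios and paired differences were added after the data were seen.

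**Figure D5:**
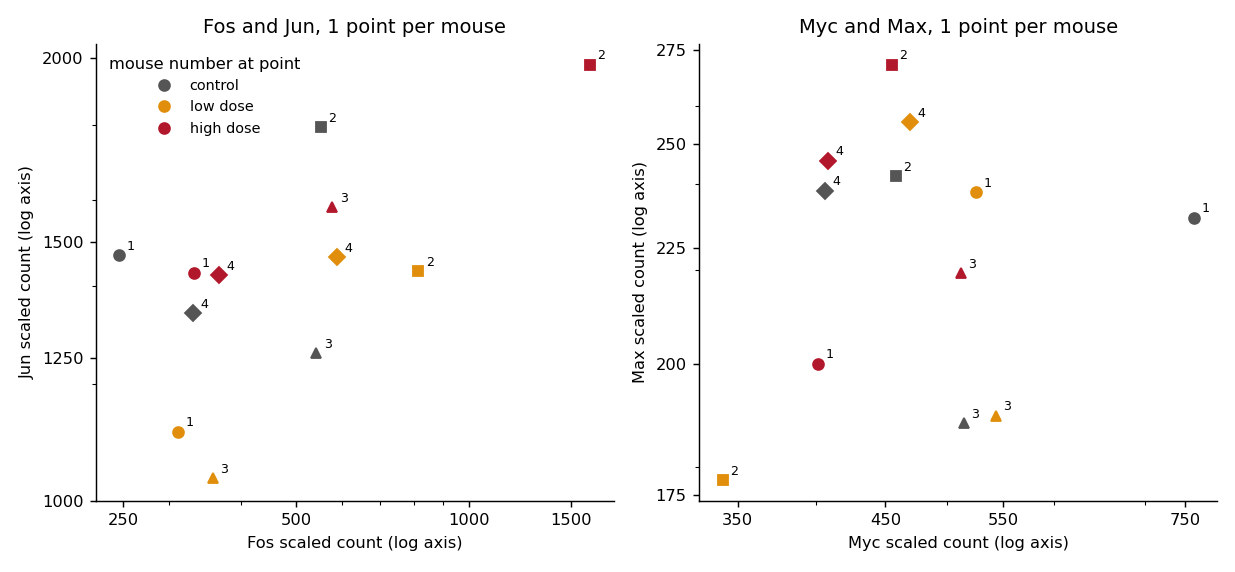
Scaled counts of Jun against Fos (left) and of Max against Myc (right) on log axes, 1 point per mouse, coloured by dose and numbered by mouse. High-dose mouse 2 is highest for both Fos (1624) and Jun (1979), and control mouse 1 is farthest right for Myc (760.9).

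For each of the 8, the genes whose deviations within groups were most like its own over the 12 mice were found among the 165 tested, as a description. Fos was most like Masp1, a lectin pathway protease (r = 0.89), Jun (0.74) and Tlr4, the LPS receptor (0.66). Jun was most like Fos, the heat shock protein gene Hspb1 (0.72) and the chemokine Ccl17 (0.71). Elk1 was most like Tgfbr1, a TGF-beta receptor (0.93), the ERK kinase Mapk3 (0.83) and the stress kinase Map3k5 (0.82). Masp1 and Ccl17 had mean raw counts of only 18.2 and 21.4, with a spread of 0.932 and 1.25 times their counting error.

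Atf2 was most like Rapgef2 (r = 0.91), Mapkapk5 (0.88) and the transcription factor Mef2a (0.86). Max was most like Hras1 (0.87), a Ras gene, then Traf2 (0.75) and Rapgef2 (0.74). Hras1 had a mean raw count of only 23.7, with a spread of 1.02 times its counting error. Bcl6 was most like Tgfbr1 (0.84), C3ar1 (0.77) and Gnas (0.76). On the positive control scale the likeness of Fos to Tlr4 dropped to 0.014, to Jun to 0.32 and to Masp1 to 0.70. The likeness of Bcl6 to Gnas and to Tgfbr1 dropped to 0.18 and 0.39 when lanes were scaled by TMM, and that of Elk1 to Tgfbr1 to 0.55. For Creb1 the nearest were Il13 (0.76), Il8ra (0.76) and Csf3 (0.74), and for Myc Il10 (0.82), Map2k4 (0.68) and Ccl22 (0.62). Il13, Il8ra and Il10 had mean raw counts of 4.67, 4.33 and 4.58, and Ccl22 9, close to the negative control limits of 3.16 to 6.78.

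The genes that act upstream and downstream of these factors were counted from lists. Of the 21 upstream kinases and adaptors, all tested, 0 passed in each comparison by edgeR, with 1, 1 and 0 at an unadjusted p below 0.05 at the high dose, at the low dose and between the doses. Of all 165 genes 22.4%, 2.42% and 6.67% passed in turn, and 32.1%, 13.9% and 22.4% had an unadjusted p below 0.05. The median log2 fold change of the 21 at the high dose was 0.05, with a range from -0.17 to 0.33, beside 0.24 for all genes. Mapkapk2, the kinase below p38, had the smallest p at the high dose (0.23 ± 0.09, SE, edgeR adjusted p = 0.081), then Prkcb1 (0.33 ± 0.15, adjusted p = 0.162). With 2 µg the adaptor Shc1 was at -0.17 ± 0.07 (adjusted p = 0.29). Between the doses the smallest p belonged to Prkcb1 (0.32 ± 0.15, adjusted p = 0.22) and Mapkapk5 (0.14 ± 0.09, adjusted p = 0.383). DESeq2 called 9, 1 and 1 of the 21 lower, and on other scales edgeR called 6 (TMM), 7 (size factors) and 17 (total count) lower at the high dose, the last also 13 between the doses. At the high dose DESeq2 called 66 of all 165 genes in either direction, and edgeR on these scales 54, 59 and 92. Both limma-voom and the analysis of variance called 0 in all 3 comparisons.

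Of 14 other transcription factors on the panel, 1 rose and 0 fell at the high dose by edgeR, and likewise between the doses. Of all genes 22.4% and 6.67% passed in these 2 comparisons. The median of the 14 was 0.16 at the high dose, beside 0.24 for all genes. At the high dose 5 of the 14 had an unadjusted edgeR p below 0.05, and 3 did between the doses, beside 32.1% and 22.4% of all genes. For the high dose limma-voom called 3 higher and 0 lower, and DESeq2 1 higher and 4 lower. Of all 165 genes limma-voom called 39 there and DESeq2 66. On other scales edgeR called 2 higher and 0 lower (positive controls), 1 higher and 2 lower (TMM), 1 higher and 3 lower (size factors) and 1 higher and 8 lower (total count), the last also 4 lower between the doses. Of all 165 genes these scales called 38, 54, 59 and 92 at the high dose. With 2 µg 0 of 14 passed by edgeR, DESeq2 or limma-voom, and 0 had an unadjusted edgeR p below 0.05, with Mef2a at -0.18 ± 0.11 (adjusted p = 0.497).

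Some inflammatory genes with known AP-1 elements rose while Fos and Jun did not pass. Of 11 on the panel 10 were tested, and 6 rose at the high dose (5 with mouse number as a block), beside 22.4% of all genes. The median log2 fold change of the 10 at the high dose was 1.10, beside 0.24 for all genes. There 3 of 4 macrophage and monocyte markers, Itgb2 and 1 of 2 neutrophil markers rose too, and their part in these calls was not tested. The chemokine Ccl2 rose from 48.9 to 660.5, Ccl5 from 32.9 to 867.7, Cxcl1 from 9.88 to 68.2 and the growth factor Csf1 from 363.1 to 680.0 (means of 4 mice; edgeR adjusted p = 0.000299, 0.00259, 0.000957 and 0.00183). With 2 µg 1 of 10 rose, beside 2.42% of all genes. This was Ccl5 (4.21 ± 0.89, edgeR adjusted p = 0.0233), a call lost with limma-voom and with the block. Between the doses 3 of 10 rose, Ccl2, Csf1 and Cxcl1, beside 6.67% of all genes. Of the 2 chemokines that Bcl6 is known to repress in mouse macrophages, both rose at the high dose, beside 22.4% of all genes. These were Ccl2 (3.75 ± 0.47) and Ccl7 (4.04 ± 0.55, edgeR adjusted p = 0.000459), while Bcl6 itself stood at 0.02. Whether these genes and the factors differ in their fold changes was not tested.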

How the data were processed

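The values the authors deposited are raw molecule counts per probe and mouse, handled under the unit of an estimated count because the same columns hold the decimal binding density. All probe values were whole. RNA had an integrity number above 9.7, per the labels' protocols, and the instrument's software is not given in the sources used here. Groups were taken from titles. A gene was tested when it exceeded the negative control probes' mean by 2 of their SDs in at least 4 of 12 lanes, which kept 165 and left out 14. edgeR 4.0.16 (R 4.3.3) fitted all 12 lanes by quasi-likelihood, with the geometric mean of the 6 reference genes as offset and Benjamini-Hochberg adjustment over the 165 genes. Standard errors and intervals came from the F statistic and leave out error of the scale. Other tools were DESeq2 1.42.0, limma 3.58.1 (voom) and the series' analysis of variance on log2(scaled count + 1) with least significant differences. Alternatives were 5 other lane scales, other filters, background subtraction, 2 groups in the fit, the replicate block, pairs of same-numbered mice and leaving out mice. Permutations were 100000 (scipy 1.17.1). The procedure was tested on simulated data whose reference genes followed the lane scale without noise, so that test could not check the scaling. Lanes of a group all differed beyond counting noise (chi-square per degree of freedom of 16.4 or more).

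Named are the 8 genes, the reference genes, up to 4 genes of smallest p per list, comparison and direction (2 where none passed), and the 3 nearest patterns of each of the 8. A few genes that this rule names are not reported here. The 8 genes and the lists were chosen with earlier results of these data known. Symbols are the table's; RefSeq names Hras1 Hras, Prkcb1 Prkcb, Il8rb Cxcr2 and Il8ra Cxcr1. Same-numbered mice of the control and high-dose groups deviated together, with correlations of 0.22, 0.33, 0.11 and 0.39 over the 165 genes. Control mouse 3 correlated more with a high-dose mouse of another number. With the low dose they did not in all pairs (-0.16 to 0.59), and the labels do not say that a number marks anything shared.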

Additional observations from a re-analysis of the deposited data

How the results depend on the processing

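On the reference scale 0 of 8 genes passed in all 3 comparisons without any single mouse, with the replicate block, with limma-voom, the series' own test, background subtraction, only 2 groups fitted, no filter or the filter in all 12 lanes. At the high dose the count of the 8 was 1 by TMM, by DESeq2 size factors and with DESeq2, and 6 by total count, which also gave 1 between the doses. Genes called at the high dose numbered 37, against 54 by TMM, 59 by DESeq2 size factors, 92 by total count, 66 with DESeq2 and 24 by the series' own test. At the low dose they numbered 4, against 9 with DESeq2, 2 with limma-voom, 11 by the series' own test, 1 with 2 groups fitted, 0 without control mice 2 and 4, and 1 to 14 without single mice (14 without low-dose mouse 3, 1 or 2 without any one control or low-dose mouse 1 or 2). Between the doses they numbered 11, against 45 by total count, 7 by positive controls, 18 with DESeq2, 21 by the series' own test, 7 with background subtracted, 7 without control mice 2 and 4, and 6 to 14 without single mice (6 or 7 without control mouse 2, low-dose mouse 4 or high-dose mouse 2, 3 or 4). The replicate block gave 34 genes at the high dose, 11 between the doses and a log2 fold change of 0.57 for Fos, and changed no call of the 8.

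These log2 fold changes turned direction, and causes were not tested beyond the shift of the median of all genes. At the high dose, by TMM, DESeq2's size factors, total count and DESeq2 in turn, Jun was at -0.12, -0.15, -0.46 and -0.15, Atf2 at -0.20, -0.22, -0.53 and -0.22, Max at -0.21, -0.23, -0.54 and -0.23, and Bcl6 at -0.21, -0.23, -0.54 and -0.24. Creb1 was at -0.0021, -0.31 and -0.0093 by the last 3, Max at -0.011 by positive controls, and Elk1 at 0.035 without control mice 2 and 4. Elk1 (-0.63) and Myc (-0.89) were called by total count. Between the doses, by the same 4 in turn, Elk1 was at -0.0085, -0.024, -0.30 and -0.035, Atf2 at -0.052, -0.066, -0.35 and -0.066, Max at -0.056, -0.071, -0.35 and -0.070, and Bcl6 at -0.13, -0.16, -0.42 and -0.15. By total count Jun was at -0.11 and Creb1 at -0.20, and by positive controls Atf2 at -0.037, Max at -0.045 and Bcl6 at -0.13.

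At the low dose Creb1 was at -0.072, -0.082, -0.11 and -0.086 by those 4, -0.013 with limma-voom, -0.0062 by the series' own test and -0.0079 with the replicate block. Positive controls put Atf2 at 0.046, Max at 0.033 and Bcl6 at 0.13 there, and Bcl6 was at 0.0089 with limma-voom, 0.0014 by the series' own test and 0.0099 with the block. Without control mice 2 and 4 Max was at 0.034 and Bcl6 at 0.063. Without single mice the ranges were, at the high dose, -0.23 to 0.031 for Elk1, -0.022 to 0.12 for Max and -0.11 to 0.12 for Bcl6. At the low dose they were -0.13 to 0.086 for Creb1, -0.30 to 0.032 for Myc, -0.16 to 0.016 for Max and -0.14 to 0.10 for Bcl6, and between the doses -0.28 to 0.79 for Fos and -0.079 to 0.12 for Bcl6. The r of Fos with Jun was 0.58 by TMM, 0.56 with size factors, 0.57 by total count and 0.32 by positive controls, none with a permutation p below the threshold, and 0.61 (without high-dose mouse 2, permutation p = 0.119) to 0.89 without single mice. Jun with Atf2 was at -0.10 by TMM, and Myc with Max from -0.12 to 0.30 without single mice. Counts of about 60 per lane limit Elk1 and Creb1.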

Other observations

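The mice of a group are numbered 1 to 4 in the titles, and the lowest and highest Fos had the same numbers in all 3 groups. Mouse 1 had the lowest scaled count of Fos in each group (246.3 in controls, 311.4 at the low dose, 332.5 at the high dose) and mouse 2 the highest (552.7, 815.6 and 1624). The ratio of Myc to Max counts was higher in mice 1 and 3 than in mice 2 and 4 in each group. In controls it was 3.28 and 2.73 against 1.89 and 1.70, at the low dose 2.21 and 2.87 against 1.92 and 1.84, and at the high dose 2.01 and 2.33 against 1.68 and 1.66. These patterns were noticed in the data and not tested, and the labels do not say whether a number marks a shared day, litter or batch.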
